A study of Arabidopsis thaliana with 12 samples.

Results

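Alpha-expansins are secreted proteins that let the plant cell wall creep under turgor, and 10 of the genes that encode them were followed here in seedlings. The members, chosen by gene identifier, were EXPA1 (AT1G69530), EXPA3 (AT2G37640), EXPA4 (AT2G39700), EXPA5 (AT3G29030), EXPA6 (AT2G28950), EXPA8 (AT2G40610), EXPA9 (AT5G02260), EXPA10 (AT1G26770), EXPA11 (AT1G20190) and EXPA15 (AT2G03090). They are 10 of the 27436 genes in the deposited tables, and all 10 had enough counts to be tested. The libraries came from whole, untreated, 7-day-old Arabidopsis thaliana seedlings grown on 1/2 MS medium with 1% sucrose, from about 50 mg of tissue each. There were 4 genotypes of 3 libraries each: Col-0 wild type (WT), 2 double mutants (pnet2_ac, pnet2_bc) and 1 triple mutant (pnet2_abc). The mutations are in genes for the plant nuclear membrane proteins PNET2A, PNET2B and PNET2C, and both double mutants and the triple mutant carry the c mutation. The labels give no allele and no number of plants per library, and do not say that replicate libraries stem from different plants, so a p-value covers only the spread among these libraries.

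Expansins act at acid pH, without cutting wall polymers, by loosening the contacts between cellulose microfibrils and the surrounding matrix. The acid wall is made by plasma membrane proton pumps, which auxin activates, and brassinosteroids and phytochrome-interacting factors set the transcript levels of many wall-loosening genes. In seedlings, alpha-expansins are known for their part in the expansion of hypocotyl, leaf and root cells. EXPA1 is best known from guard cells, where its dosage alters stomatal movement, EXPA5 from brassinosteroid-dependent growth, and EXPA10 from leaf and petiole growth.

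Library totals were 65758625 to 115881203 counts, and 3 counts, taken as the limit that a count of 0 allows, equalled 0.0262 to 0.0436 CPM. CPM here means counts per 1000000 after TMM scaling of the library size. The reference names no gene PNET2, so the 3 genes annotated with its domain DUF2215 were examined: AT3G49840 stood at 8.03 to 10.8 CPM in WT and 2.09 to 2.31 CPM in pnet2_abc, AT5G67610 at 18.9 to 23.6 and 10.7 to 12.01 CPM, and AT1G28760 at 3.65 to 4.48 and 42.4 to 54.1 CPM. In pnet2_ac and pnet2_bc AT3G49840 stood at 6.36 to 7.31 and 5.48 to 8.33 CPM, AT5G67610 at 20.9 to 24.1 and 14.35 to 15.4 CPM, and AT1G28760 at 4.78 to 5.82 and 3.81 to 4.80 CPM. The labels do not say which of these genes, if any, is PNET2A, PNET2B or PNET2C, so the genotypes were not checked gene by gene. All 7 root markers, 7 root hair markers and 6 green shoot markers had counts in every genotype. For CLV3, listed as a green shoot marker, these were 0, 0 and 3 counts in pnet2_ac. The summed level of the green shoot markers was 25280 to 28230 CPM in WT and 7358 to 7899 CPM in pnet2_abc. There 4 of the 6 (RBCS1A, CA1, PSBO1 and GAPA) were lower, and STM and CLV3 were not called. That comparison called 32% of all tested genes lower and 64.5% in either direction. The root markers summed to 96.5 to 127.0 CPM in WT and 50.9 to 58.5 CPM in pnet2_abc. Of these 4 of 7 were lower (CASP1, SCR, SHR and TIP2;3). WER, PLT1 and PLT2 were not called, with log2 fold changes of 0.20, 0.20 and 0.86. The root hair markers summed to 18.0 to 33.6 CPM in WT and 17.2 to 38.1 CPM in pnet2_abc. Of the root hair markers edgeR called only RHD6, as higher (adjusted p = 0.0499). In the double mutants the sums were 22900 to 25670 CPM for green shoot, 98.6 to 137 CPM for root and 12.8 to 33.5 CPM for root hair markers, and edgeR, DESeq2 and limma on TPM called 0 of the markers against WT (3 in each double mutant had an unadjusted p under 0.05 by edgeR). These are bulk samples, in which fewer cells of a type and less RNA per cell cannot be told apart, and the part of the marker differences in the results below was not tested.

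The coding sequences of the members are alike but not interchangeable. Over the 45 pairs, 58.6% to 78.7% of aligned coding bases were identical, and the longest run of bases shared by 2 members' transcripts was 11 to 33 bases. No member overlaps another gene in the reference annotation (RefSeq, TAIR10.1, used here for all coordinates). The closest pair was EXPA1 with EXPA10 (78.7% identity), followed by EXPA4 with EXPA6 (77.3%). EXPA15 was closest to EXPA10 (75.1%), and EXPA3 and EXPA9 were closest to each other (75.0%). EXPA8, EXPA5 and EXPA11 stood further out, with their closest members at 71.4%, 70.8% and 63.1%.

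The 300 bases before the annotated start are shown for 4 members that the results turn on: the closest pair, EXPA1 and EXPA10, and the members with the largest fall (EXPA8) and the largest rise (EXPA9) in pnet2_abc. Bases run 5′ to 3′ on the strand of the gene, from RefSeq TAIR10.1, and no other annotated gene lies in these windows. EXPA1 is chr1:26141426-26141725 (plus strand), EXPA10 chr1:9259132-9259431 (plus), EXPA8 chr2:16950706-16951005 (minus) and EXPA9 chr5:462773-463072 (plus). Capitals mark matches, on either strand, to the motifs described after them.
EXPA1: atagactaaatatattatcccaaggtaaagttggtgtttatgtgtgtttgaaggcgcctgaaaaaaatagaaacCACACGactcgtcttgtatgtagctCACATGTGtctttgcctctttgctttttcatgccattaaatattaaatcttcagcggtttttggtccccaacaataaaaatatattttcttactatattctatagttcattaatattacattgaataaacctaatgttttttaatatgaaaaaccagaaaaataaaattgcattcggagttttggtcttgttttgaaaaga
EXPA10: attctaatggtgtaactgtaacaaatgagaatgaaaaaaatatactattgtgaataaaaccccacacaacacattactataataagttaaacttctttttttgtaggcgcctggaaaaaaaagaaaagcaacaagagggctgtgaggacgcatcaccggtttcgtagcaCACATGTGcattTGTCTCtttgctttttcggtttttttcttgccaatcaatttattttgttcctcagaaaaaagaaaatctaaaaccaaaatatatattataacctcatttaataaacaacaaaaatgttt
EXPA8: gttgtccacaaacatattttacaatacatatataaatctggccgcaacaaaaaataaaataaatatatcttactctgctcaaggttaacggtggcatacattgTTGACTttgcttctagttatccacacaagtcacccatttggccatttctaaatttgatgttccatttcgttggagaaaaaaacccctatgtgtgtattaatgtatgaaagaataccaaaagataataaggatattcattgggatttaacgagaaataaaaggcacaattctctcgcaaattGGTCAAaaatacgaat
EXPA9: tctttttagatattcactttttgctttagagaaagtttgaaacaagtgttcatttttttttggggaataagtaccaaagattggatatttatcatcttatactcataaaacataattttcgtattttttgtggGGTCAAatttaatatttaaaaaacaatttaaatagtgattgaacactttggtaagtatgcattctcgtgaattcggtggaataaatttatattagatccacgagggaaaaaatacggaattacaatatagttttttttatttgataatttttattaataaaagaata

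The windows of the 10 members were searched for 8 motifs on both strands, against the same windows of 22065 tested protein-coding genes. The G-box CACGTG, read by PIF and other bHLH factors, was in none of the 10 windows and in 7.87% of all. Its E-box form CATGTG was in 3 of 10 windows (EXPA1, EXPA10 and EXPA11) and in 13.3% of all. The auxin response element TGTCTC was in 3 of 10 (EXPA5, EXPA6 and EXPA10; 12.9% of all), and the brassinosteroid response element form CGTGTG, in the reverse letters CACACG, was in 2 of 10 (EXPA1 and EXPA6; 6.31%). The W-box TTGACC was in 3 of 10 (EXPA4, EXPA8 and EXPA9; 14.1%) and its form TTGACT in 2 of 10 (EXPA4 and EXPA8; 21.9%). TGTCGG and CGTGCG were in none (5.29% and 1.93% of all). In EXPA1 and EXPA10 the CATGTG matches of both strands overlap in the palindrome CACATGTG, which starts 201 bases before the start of EXPA1 and 131 before that of EXPA10. This palindrome, picked out after the windows were seen, is in 107 of the 22065 windows (0.485%). The same windows share a run of 14 bases, ctctttgctttttc. A match describes letters only; no binding was measured.

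In WT, EXPA1 and EXPA6 gave the most transcripts per length of the 10 members. Levels between genes are in TPM (an abundance divided by transcript length and scaled to a sum of 1000000 per library), here the deposited values, which hold the same counts as the count table divided by 1 length per gene. EXPA1 stood at 137, 130.0 and 137 TPM, and EXPA6 at 117, 104 and 115 TPM. The libraries of these genes did not overlap, nor did those of EXPA6 and EXPA4, the next in order at 71.1 ± 3.78 TPM (SD, n = 3). EXPA15 followed at 46.9 ± 2.24 TPM, then EXPA10 (37.8 ± 2.096) and EXPA3 (37.3 ± 1.09), whose libraries overlapped. EXPA5 (30.1 ± 2.65 TPM) and EXPA8 (28.4 ± 2.45 TPM) also overlapped, while EXPA9 (19.5 ± 1.40 TPM) and EXPA11 (12.4 ± 4.03 TPM) formed the lower end. The highest member mean was 10.8 times the lowest in WT, 10.02 times in pnet2_ac, 9.02 times in pnet2_bc and 31.2 times in pnet2_abc.

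**Figure D1:**
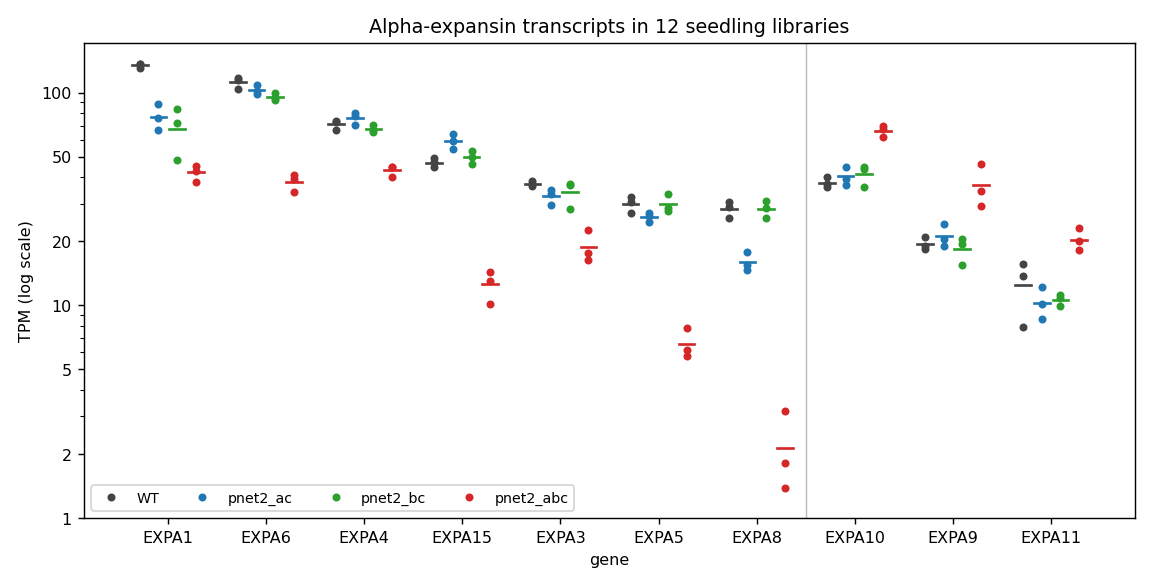
TPM of the 10 alpha-expansin genes (log axis) in each of the 12 libraries; points are libraries, bars are genotype means, and the vertical line separates the 7 genes lower in pnet2_abc than in WT (left) from EXPA10, EXPA9 and EXPA11. EXPA1 is the highest gene in WT (134.5 TPM) and EXPA10 in pnet2_abc (66.4 TPM), where EXPA8 is at 2.12 TPM.

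In pnet2_abc, 7 of the 10 members were lower than in WT and 2 were higher, by edgeR's quasi-likelihood test at a Benjamini-Hochberg adjusted p under 0.05. The same test called 64.5% of the 23330 tested genes in this comparison, 32.5% higher and 32% lower, so that 7 of 10 lower stands against a background of about 3 in 10. Among the 10227 genes within the members' range of mean level (11.5 to 93.3 CPM) 75.5% were called, 36.5% lower and 39.1% higher. The median log2 fold change was -1.48 over the 10 members and 0.01 over all tested genes. The members were chosen with earlier results of these data known. With library size alone in place of TMM, the all-gene median was 0.205 and the split over all genes was 9226 higher and 6098 lower (7587 and 7467 with TMM); the members' split was 3 higher and 7 lower.

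EXPA8 fell most. Its gene lies on chromosome 2 (AT2G40610, chr2:16948791-16950705, minus strand, 3 exons). It stood at 27.5, 23.6 and 27.4 CPM in WT and at 1.40, 1.12 and 2.53 CPM in pnet2_abc. All 3 triple-mutant libraries lay far below the lowest WT library, 15.4-fold lower on the fitted means (95% interval 10.9 to 21.8; log2 fold change -3.94 ± 0.23 SE, adjusted p = 7.0e-09). Among the 23330 tested genes, 310 had a log2 fold change this low or lower (1.33%).

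EXPA5, the brassinosteroid-linked member (AT3G29030, chr3:11011262-11013451, minus strand, 3 exons), fell from 31.5, 30.2 and 27.7 CPM to 4.84, 5.40 and 6.73 CPM. The groups did not overlap, and the fold was 5.26 (log2 fold change -2.40 ± 0.12 SE, adjusted p = 1.6e-09). EXPA15 (AT2G03090, chr2:916806-918671, minus strand, 4 exons) fell from 47.9, 44.2 and 48.3 CPM to 10.97, 12.6 and 8.77 CPM, 4.34-fold (log2 -2.12 ± 0.12 SE, adjusted p = 3.7e-09). These 2 members and EXPA8 were in the lowest 6.34% of all genes ranked by log2 fold change.

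The most abundant members of WT also fell. EXPA1 (AT1G69530, chr1:26141726-26143538, plus strand, 4 exons) stood at 136, 131 and 142 CPM in WT and 32.6, 38.5 and 39.7 CPM in pnet2_abc, 3.70-fold lower (log2 -1.89 ± 0.17 SE, adjusted p = 3.4e-07). EXPA6 (AT2G28950, chr2:12431338-12433796, minus strand, 3 exons) went from 126, 115 and 130.4 CPM to 36.7, 40.0 and 32.6 CPM, 3.40-fold lower (log2 -1.76 ± 0.08 SE, adjusted p = 9.5e-10). For both genes every triple-mutant library lay below every WT library.

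EXPA3 and EXPA4 fell least. EXPA3 (AT2G37640, chr2:15787523-15790139, minus strand, 3 exons) stood at 43.7, 42.0 and 44.3 CPM in WT and 16.0, 18.1 and 22.7 CPM in pnet2_abc (2.29-fold lower, log2 -1.19 ± 0.13 SE, adjusted p = 2.4e-06). EXPA4 (AT2G39700, chr2:16543832-16545746, minus strand, 3 exons) stood at 74.0, 76.7 and 71.6 CPM in WT and 39.3, 36.9 and 40.4 CPM in pnet2_abc (1.91-fold lower, log2 -0.93 ± 0.07 SE, adjusted p = 4.8e-08). The groups did not overlap for either gene. Of the 7 lower members, all but EXPA4 fell at least 2-fold. Over all tested genes, 4192 of the 7467 called lower fell at least 2-fold (18% of the 23330 tested).

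EXPA10 and EXPA9 moved the other way. EXPA10, the leaf-growth member (AT1G26770, chr1:9259432-9261313, plus strand, 4 exons), stood at 42.1, 38.5 and 40.8 CPM in WT and 55.7, 66.1 and 62.2 CPM in pnet2_abc, 1.52-fold higher (log2 0.60 ± 0.10 SE, adjusted p = 0.000128). EXPA9 (AT5G02260, chr5:463073-465273, plus strand, 3 exons) stood at 17.0, 19.8 and 18.5 CPM in WT and 37.0, 28.7 and 23.9 CPM in pnet2_abc, 1.62-fold higher (log2 0.70 ± 0.15 SE, adjusted p = 0.00125). Neither gene's groups overlapped, and the triple-mutant libraries of EXPA9 were the more spread (SD 6.59 CPM against 1.41 in WT).

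EXPA11 (AT1G20190, chr1:6998335-6999839, minus strand, 3 exons) was not called against WT. It stood at 7.08, 12.4 and 14.7 CPM in WT and at 17.7, 16.1 and 14.3 CPM in pnet2_abc, so that the lowest triple-mutant library lay below the highest WT library. The log2 fold change was 0.49 ± 0.21 SE (95% interval 0.03 to 0.96, adjusted p = 0.0589). It passed in 6 of 23 alternative analyses, and without WT replicate 1, the low library, the log2 fold change was 0.24 (adjusted p = 0.193).

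Some closest relatives differed in direction and others did not. EXPA1 fell and EXPA10, its closest member, rose. EXPA3 fell and EXPA9, its closest member, rose. EXPA4 and EXPA6, closest to each other, both fell, and so did EXPA5 and its closest member EXPA1. EXPA8 and EXPA15, closest to EXPA10, fell, and EXPA11, also closest to EXPA10, was not called. Of the 45 pairs of members, 21 join one of the 7 lower members with EXPA9, EXPA10 or EXPA11. The ratio of EXPA1 to EXPA10 in TPM was 3.41, 3.599 and 3.68 in WT, 1.49, 2.40 and 1.93 in pnet2_ac, 1.34, 1.64 and 1.87 in pnet2_bc, and 0.617, 0.614 and 0.674 in pnet2_abc. The ratio was highest in the 3 WT libraries and lowest in the 3 triple-mutant libraries, and only the double mutants overlapped each other. Both genes hold the palindrome shown above in their windows.

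Set against the double mutants, the triple mutant gave the same directions. In pnet2_abc against pnet2_ac all 10 members were called, 7 lower and 3 higher, where 62.9% of all tested genes were called (32.2% lower, 30.7% higher). In pnet2_abc against pnet2_bc all 10 were again called, 7 lower and 3 higher, against 64.1% of all genes (32.3% lower, 31.8% higher). The 7 lower members in each were those lower against WT, and the 3 higher were EXPA9, EXPA10 and EXPA11. EXPA11 stood at 8.84, 10.6 and 7.67 CPM in pnet2_ac and at 8.98, 9.72 and 9.66 CPM in pnet2_bc, below all 3 triple-mutant libraries (adjusted p = 0.00441 and 0.00706). These comparisons and that with WT share the pnet2_abc libraries. All 9 calls against WT and all 10 calls against each double mutant were kept in 23 of 23 alternative analyses.

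In the double mutants EXPA1 was the only member called against WT in the main edgeR fit, and it was lower in both. It stood at 64.9, 85.9 and 75.3 CPM in pnet2_ac, 1.81-fold below WT (log2 -0.86 ± 0.16 SE, adjusted p = 0.0274), in a comparison where 1.14% of all tested genes were called. It stood at 48.2, 69.4 and 82.8 CPM in pnet2_bc, 2.04-fold below WT (log2 -1.03 ± 0.16 SE, adjusted p = 0.0156), where 0.643% of all genes were called. All 6 double-mutant libraries lay below the lowest WT library, and all 3 triple-mutant libraries lay below the lowest double-mutant library. EXPA1 was lower in pnet2_abc than in pnet2_ac by 1.03 ± 0.16 SE on the log2 scale (adjusted p = 9.4e-05), and than in pnet2_bc by 0.85 ± 0.16 SE (adjusted p = 0.000423). Between the double mutants its difference was -0.17 on the log2 scale (pnet2_bc minus pnet2_ac, 95% interval -0.52 to 0.17, adjusted p = 0.78).

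The EXPA1 calls in the double mutants were near the threshold and were lost when some single libraries were left out. Of the 23 alternatives, 16 made the call in pnet2_ac and 18 in pnet2_bc. Leaving out WT replicate 1, 2 or 3 gave adjusted p of 0.0743, 0.0707 and 0.0919 in pnet2_ac and 0.0502, 0.0518 and 0.0598 in pnet2_bc, and leaving out pnet2_ac replicate 1 or 3, or pnet2_bc replicate 2, gave 0.0876, 0.0904 and 0.0661. Its log2 fold change stayed between -0.97 and -0.76 in pnet2_ac and between -1.22 and -0.84 in pnet2_bc over the 23 alternatives.

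EXPA8 did not pass the test in either double mutant, and its levels in them were not alike. It stood at 15.8, 12.8 and 13.9 CPM in pnet2_ac and at 23.3, 27.1 and 25.9 CPM in pnet2_bc, and the pnet2_ac libraries lay below all those of WT and pnet2_bc. Against WT the log2 fold change was -0.88 ± 0.20 SE in pnet2_ac (95% interval -1.32 to -0.45, adjusted p = 0.0566) and -0.04 ± 0.20 SE in pnet2_bc (95% interval -0.47 to 0.39, adjusted p = 0.976). The direct comparison, pnet2_bc minus pnet2_ac, gave 0.84 ± 0.20 SE (95% interval 0.41 to 1.28, adjusted p = 0.124), where 0.257% of all tested genes and none of the 10 members were called by edgeR (2 members had an unadjusted p under 0.05; limma on TPM called 0 and DESeq2 1). DESeq2 called EXPA8 in pnet2_ac (adjusted p = 0.000795) and between the double mutants (0.00441). The pnet2_ac call was also made in 6 other alternatives.

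The other 8 members did not pass the test in either double mutant. Their log2 fold changes ran from -0.33 (EXPA11) to 0.28 (EXPA15) in pnet2_ac and from -0.27 (EXPA11) to 0.09 (EXPA10) in pnet2_bc. The widest 95% intervals were those of EXPA11, -0.80 to 0.13 in pnet2_ac and -0.74 to 0.19 in pnet2_bc. In pnet2_ac 6 of the 10 members, EXPA1 and EXPA8 included, did not overlap WT, and in pnet2_bc 3 of the 10 did not, beside 19.6% and 17% of all tested genes. Of the uncalled ones EXPA3, EXPA5 and EXPA6 lay below WT in all 3 pnet2_ac libraries, with log2 fold changes of -0.25, -0.26 and -0.17 (adjusted p = 0.394, 0.31 and 0.35). EXPA15 had all 3 pnet2_ac libraries (61.0, 56.3 and 52.9 CPM) above the highest WT library, with an interval of 0.04 to 0.52 and an adjusted p of 0.26. EXPA6 had all 3 pnet2_bc libraries (at most 108 CPM) below the lowest WT library, with an interval of -0.44 to -0.09 and an adjusted p of 0.195. EXPA4 (66.9, 70.05 and 68.2 CPM in pnet2_bc) also lay below its lowest WT library, with a log2 fold change of -0.12 and an adjusted p of 0.583.

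**Figure D2:**
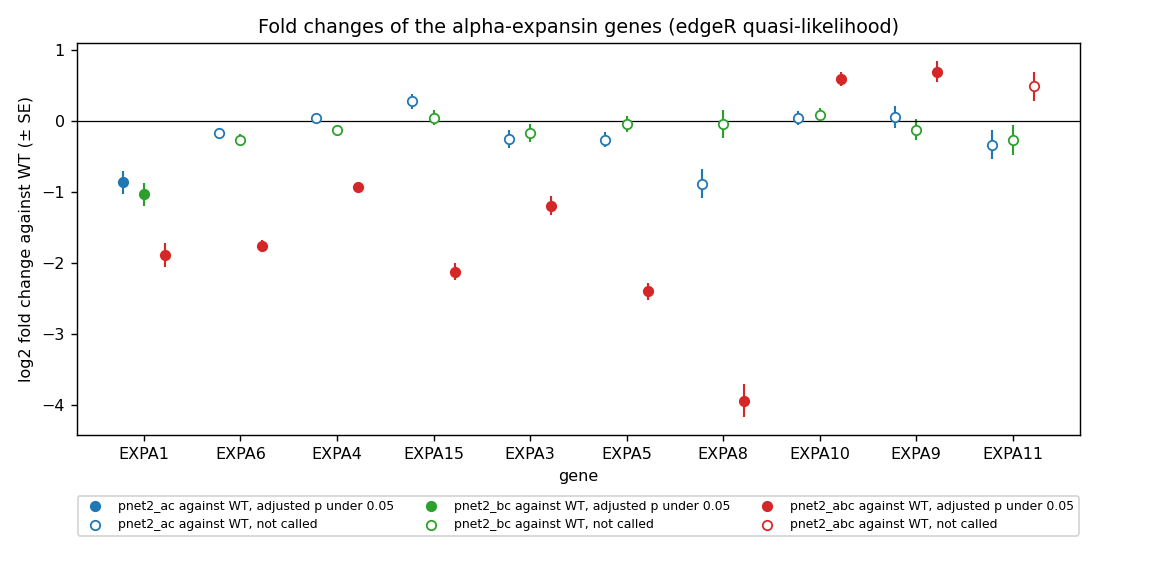
Log2 fold change against WT of the 10 alpha-expansin genes in pnet2_ac, pnet2_bc and pnet2_abc, with SE; filled points have an adjusted p under 0.05. EXPA1 is filled in all 3 mutants (-0.86, -1.03 and -1.89), and EXPA8 in pnet2_abc (-3.94) lies lowest.

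The make-up of the alpha-expansin transcripts shifted in pnet2_abc. The summed level of the 10 members was 543, 516 and 530.3 TPM in WT, 459, 482 and 446 TPM in pnet2_ac, 403, 466 and 462 TPM in pnet2_bc, and 291, 287 and 283 TPM in pnet2_abc. In CPM, with the TMM scaling that TPM lacks, the mean sum was 550.8 in WT and 256.5 in pnet2_abc. It was 463.9 in pnet2_ac and 448.9 in pnet2_bc. In TPM the WT mean was 1.85 times the triple-mutant mean, and the double mutants overlapped each other between these. EXPA9, EXPA10 and EXPA11 together made up 12.2%, 13.7% and 13.5% of the sum in WT and 45.2%, 43.2% and 40.6% in pnet2_abc, with 15.0% to 16.4% in the double mutants. EXPA10 alone went from 7.13% ± 0.23 in WT to 23.1% ± 1.62 in pnet2_abc (SD, n = 3), EXPA9 from 3.68% ± 0.36 to 12.8% ± 2.89, and EXPA11 from 2.35% ± 0.79 to 7.09% ± 0.77. EXPA1 went from 25.4% ± 0.32 in WT to 16.7% ± 1.98 in pnet2_ac, 15.1% ± 3.06 in pnet2_bc and 14.7% ± 1.47 in pnet2_abc, a share that overlapped among the 3 mutants, while the level in pnet2_abc lay below both double mutants. EXPA4 held 13.4% ± 0.87 in WT and 15.1% ± 1.001 in pnet2_abc although its level fell. EXPA8 went from 5.35% ± 0.33 to 0.742% ± 0.34.

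The order of the members changed with it. In both double mutants EXPA6 was first (103 and 95.9 TPM) and EXPA1 and EXPA4 overlapped behind it, at 77.2 and 76.3 TPM in pnet2_ac and 67.7 and 67.4 TPM in pnet2_bc. In pnet2_abc EXPA10 came first at 66.4 ± 4.07 TPM and did not overlap EXPA4 (43.2 ± 2.76 TPM), EXPA1 (42.1 ± 3.68 TPM) or EXPA6 (38.2 ± 3.54 TPM). EXPA4 overlapped EXPA1, EXPA1 overlapped EXPA6, and EXPA6 overlapped EXPA9 (36.7 ± 8.79 TPM), which did not overlap EXPA11. EXPA11 (20.4 ± 2.49 TPM) overlapped EXPA3 (18.9 ± 3.32 TPM), and EXPA15 (12.5 ± 2.12 TPM), EXPA5 (6.60 ± 1.10 TPM) and EXPA8 (2.12 ± 0.95 TPM) ended the order without overlap.

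**Figure D3:**
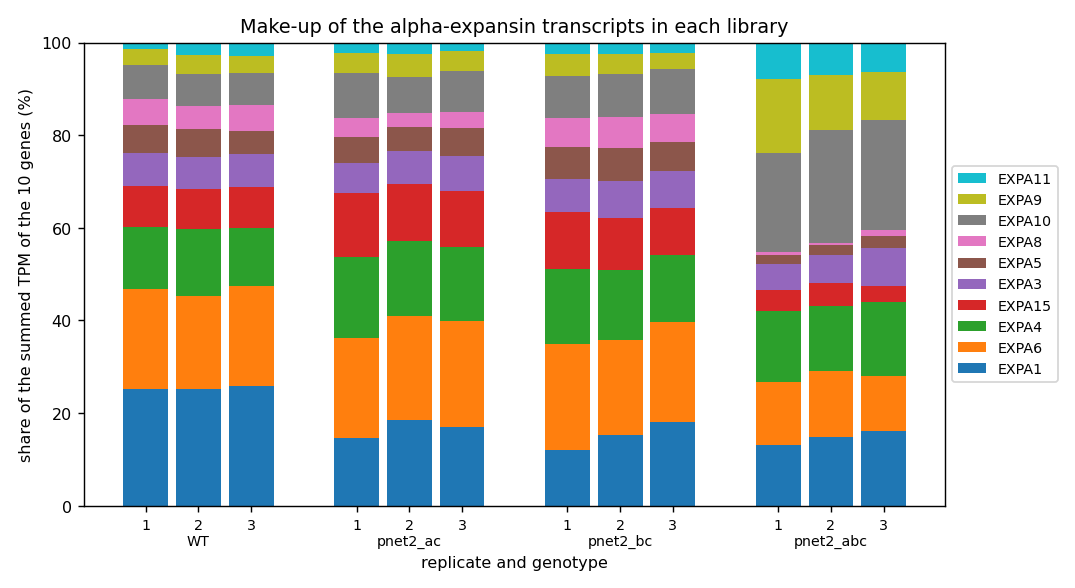
Share of each gene in the summed TPM of the 10 alpha-expansins (%), 1 bar per library, grouped by genotype. EXPA10, EXPA9 and EXPA11, at the top of each bar, make up 42.97% on average in pnet2_abc and 13.16% in WT.

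How the members varied together across libraries depended on whether the triple mutant was included. Pearson's r of log2(CPM + 1), given as a description because the libraries share genotype and scaling, had a median of 0.64 over the 45 pairs and 12 libraries, and 44 pairs had an r of at least 0.5 in size. The median was 0.94 over the 21 pairs among the 7 lower members and -0.80 over the 21 pairs that join one of them with EXPA9, EXPA10 or EXPA11, which restates the directions in pnet2_abc that formed these sets. Without the 3 pnet2_abc libraries the medians over the same sets were 0.24 and 0.07. Over all 45 pairs r then ran from -0.75 (EXPA8 with EXPA15) to 0.90 (EXPA1 with EXPA6), with a median of 0.12, and 13 pairs had an r of at least 0.5 in size. For deviations from the genotype means the median was 0.11.

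By the same measure, 15682 genes outside the expansin superfamily, with a mean level of 5 CPM or more, were compared over 12 libraries. These include the pnet2_abc libraries, and r without them was not computed for these genes. Most like EXPA8 were AT4G37080 (r = 0.996), AT3G57400 (0.993), AT3G18870 (0.993), HBI1 (0.993) and DEG1 (0.992). As many as 1898 genes had an r of at least 0.95 with EXPA8. For EXPA9 the most alike were MSRB9 (0.958), AT5G50550 (0.953), TOC1 (0.932), AT1G72910 (0.932) and NAC036 (0.930), and 2 genes had an r of at least 0.95. HBI1 encodes a bHLH activator of cell elongation genes, DEG1 a chloroplast protease and TOC1 a clock component. HBI1 fell 3.11 ± 0.15 SE on the log2 scale in pnet2_abc, from 87.1, 88.5 and 85.6 CPM to 10.4, 7.25 and 12.6 CPM (adjusted p = 1.2e-09).

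In the rest of the expansin superfamily 9 of 15 tested genes were called in pnet2_abc, beside 64.5% of all tested genes. More of them were higher than lower. The superfamily also holds other alpha-expansins, beta-expansins (EXPB), and the expansin-like families EXLA and EXLB, for which no wall-loosening activity is established. Of 26 listed genes 16 were in the table and 15 were tested. In pnet2_abc against WT 7 were higher, 2 lower and 6 not called, beside 32.5% higher and 32% lower of all tested genes, with a median log2 fold change of -0.01 (0.01 over all genes); edgeR called 0 in either double mutant. In pnet2_ac 3 of the 15 had an unadjusted p under 0.05 and DESeq2 and limma on TPM called 0; in pnet2_bc 4 had, and DESeq2 called 3 and limma 0. EXLA1 rose from 8.59, 5.93 and 5.11 CPM to 201, 241 and 196 CPM, 32.5-fold (log2 5.02 ± 0.21 SE, adjusted p = 4.0e-10). EXLA3 rose from 0.263, 0.189 and 0.391 CPM to 3.57, 6.65 and 3.80 CPM (log2 4.05 ± 0.49 SE, adjusted p = 8.5e-06). EXPA12 had 0, 0 and 13 counts in WT and 212, 304 and 414 in pnet2_abc (adjusted p = 0.000821).

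The lower ones were beta-expansins. EXPB3 fell from 87.9, 77.2 and 88.4 CPM to 9.38, 8.03 and 7.69 CPM, 10.1-fold (log2 -3.34 ± 0.11 SE, adjusted p = 7.0e-11), and EXPB1 from 9.17, 5.84 and 6.23 CPM to 1.13, 0.809 and 0.808 CPM, 7.73-fold (log2 -2.95 ± 0.23 SE, adjusted p = 9.4e-08). Neither gene's groups overlapped. The other 4 higher genes were EXPA16, EXPA17, EXPA20 and EXLA2, named after their values were seen. EXPA16 passed narrowly (adjusted p = 0.0496) and in 11 of 22 alternatives, and EXPA20 shares 1061 bases with an antisense transcript, and the strand setting of the counting, which decides whether their reads are kept apart, is not given in the sources used here. EXPA7 and EXPA18, the root hair expansins, had log2 fold changes of -0.10 ± 0.54 and -0.08 ± 0.42 SE (adjusted p = 0.889 and 0.883).

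Among the listed proton pump genes, AHA1, AHA2 and AHA9 rose and AHA8 and AHA11 fell in pnet2_abc. Of 11 listed AHA genes 10 were tested. In pnet2_abc 3 were higher, 2 lower and 5 not called (median log2 0.07), where 64.5% of all tested genes were called, and in the double mutants edgeR, DESeq2 and limma on TPM each called 0 (0 with an unadjusted p under 0.05 in pnet2_ac and 1 in pnet2_bc by edgeR). AHA2, with AHA1 the main pump of seedlings, rose from 317, 305 and 249 CPM to 686, 749 and 788 CPM (log2 1.35 ± 0.10 SE, adjusted p = 5.6e-08), and AHA1 from 615, 602 and 558 CPM to 920, 986 and 1022 CPM (log2 0.72 ± 0.06 SE, adjusted p = 2.1e-07). AHA9 had 0, 0 and 5 counts in WT and 1156, 1464 and 1473 in pnet2_abc (adjusted p = 6.4e-07). AHA11 fell by 1.55 ± 0.07 SE and AHA8 by 0.72 ± 0.12 SE on the log2 scale (adjusted p = 8.3e-10 and 0.000139). With library size alone, and with the deposited TPM, 5 pumps were higher and 2 lower.

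Of the listed transcription regulators of elongation growth, most fell in pnet2_abc. The list was chosen with earlier results of these data known. Of 20 genes tested 13 were lower, 5 higher and 2 not called, beside 32% lower and 32.5% higher of all tested genes, with a median log2 fold change of -1.39 beside 0.01 over all genes. PRE1, an atypical HLH protein that frees bHLH activators from inhibitors, went from 3.68, 4.44 and 5.38 CPM to 0.150, 0.142 and 0.0482 CPM. Its log2 fold change was -5.31 ± 0.41 SE (adjusted p = 9.0e-08), and its pnet2_abc values rested on 11, 10 and 4 counts. BEE2, a brassinosteroid-induced bHLH factor, fell from 112, 111 and 107 CPM to 7.69, 8.38 and 6.43 CPM, 14.7-fold (log2 -3.88 ± 0.10 SE, adjusted p = 1.8e-11). The higher ones were led by PIF3, a phytochrome-interacting factor (log2 1.54 ± 0.12 SE, adjusted p = 7.8e-08), BEE1 (1.15 ± 0.20 SE, 0.000195) and BZR1, a brassinosteroid response factor (0.36 ± 0.07 SE, 0.000418), which overlaps antisense genes by 629 and 220 bases.

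In pnet2_ac 3 of these regulators were lower and 0 higher: PRE1 (log2 -1.57 ± 0.32 SE, adjusted p = 0.0368), BEE2 (-0.64 ± 0.09 SE, 0.0098) and PIF5 (-0.42 ± 0.08 SE, 0.0352), where 1.14% of all tested genes were called. The calls were made in 14, 22 and 9 of 23 alternatives. In pnet2_bc edgeR called 0 of 20 (4 with an unadjusted p under 0.05, 1 called by DESeq2 and 0 by limma on TPM), with a median log2 fold change of -0.06. Between the double mutants PRE1 (log2 1.78 ± 0.32 SE, adjusted p = 0.0453) and PIF4 (0.71 ± 0.10 SE, 0.0231) were higher in pnet2_bc. In that comparison 0.257% of all tested genes were called, and the PRE1 and PIF4 calls were not examined in the alternatives.

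**Figure D4:**
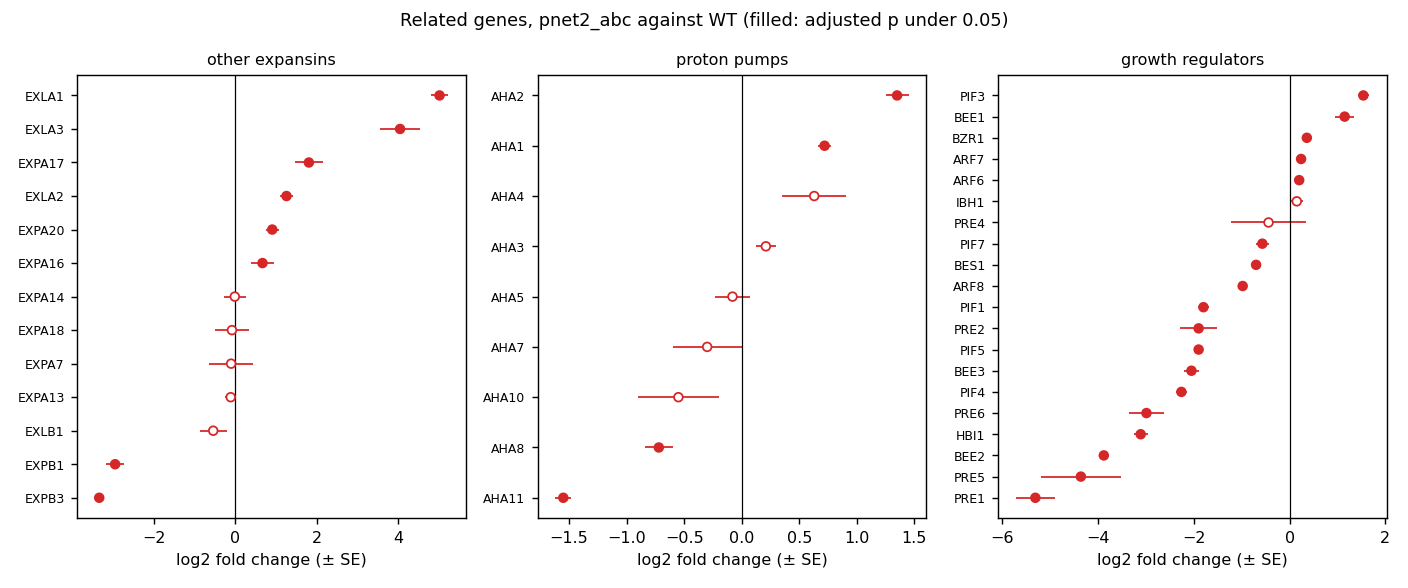
Log2 fold change in pnet2_abc against WT, with SE, of other expansin superfamily genes, proton pump genes and growth regulators; filled points have an adjusted p under 0.05. EXLA1 (5.02) stands highest among expansins, EXPB3 (-3.34) lowest, and PRE1 (-5.31) lowest among regulators; 3 genes at 0 counts in most libraries of a genotype (AHA9, EXPA12 and EXPB2) are left out.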

How the data were processed

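The authors deposited raw counts of reads per gene for the 12 libraries. HISAT2 2.0.4, HTSeq 0.6.1p1 and the build TAIR10 are named in the submitters' processing notes; what each tool did, and its strand setting, is not given in the sources used here. The authors' deposited TPM table is named for kallisto, yet 100% of its values equal the counts divided by the table's own transcript length and rescaled to 1000000 (relative tolerance 1e-06). TPM is therefore no independent measurement. It was used for levels between genes and for the sums and shares of the members.

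Counts were tested with edgeR 4.0.16 in R 4.3.3 (filterByExpr, 23330 of 27436 genes; TMM; quasi-likelihood, 12 libraries in 1 fit, 1 mean a genotype; Benjamini-Hochberg adjustment over all tested genes, called under 0.05). SE comes from the test statistic. Alternatives, including DESeq2 1.42.0 and limma 3.58.1, were 11 settings and 12 fits leaving out 1 library. Replicates differed beyond counting noise (31.18 to 48.89 chi-square units for each degree of freedom). TAIR10.1 of RefSeq supplied names (27173 of the 27436 IDs matched), coordinates and sequence, joined by gene ID; the submitters name TAIR10. Coding sequences were aligned globally in pairs. The limit from a count of 0 covers counting error only; 95% intervals come from the edgeR fit.

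The members and lists were chosen with earlier results of these data known. All members were named; from each list, up to 3 genes called in each direction against WT with the largest change and a mean of at least 1 CPM.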

Additional observations from a re-analysis of the deposited data

How the results depend on the processing

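The 9 alpha-expansin calls in pnet2_abc against WT and the 10 against each double mutant kept direction and threshold in all 23 alternatives; leaving out 1 library gave 9 to 10 calls against WT and 10 in each of the others. In pnet2_ac against WT the main analysis called 1 member. It was 2 (EXPA8 added) with DESeq2 size factors, a filter at 5 CPM, DESeq2, only the 2 groups compared or limma on log2(TPM + 1). It was 0 with limma on log2(TPM + 1) without a filter and without both WT replicate 1 and pnet2_ac replicate 2, and 0 to 2 when 1 library was left out. In pnet2_bc against WT it was 0 without those 2 libraries and 0 to 1 when 1 library was left out. Between the double mutants it was 1 with DESeq2 or only the 2 groups, and 0 to 1 when 1 library was left out. The cause was not tested. Little pairing by replicate number was seen. Deviations from the genotype means had r of -0.028 to 0.072 between same-numbered libraries and -0.088 to 0.066 between differently numbered ones. A fit with the number as a block called the same counts of members. These were 1, 1 and 9 against WT, 10 and 10 for pnet2_abc against pnet2_ac and pnet2_bc, and 0 between the double mutants.

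Signs changed only for uncalled log2 fold changes near 0. In pnet2_ac against WT, EXPA9 was -0.09 without WT replicate 1 and pnet2_ac replicate 2 together; leaving out 1 library gave -0.03 to 0.13 for EXPA9 and -0.04 to 0.1 for EXPA10. In pnet2_bc against WT, leaving out 1 library gave -0.11 to 0.02 for EXPA8. In pnet2_bc against pnet2_ac it gave -0.36 to 0.01 for EXPA1, -0.01 to 0.14 for EXPA10 and -0.04 to 0.19 for EXPA11, and EXPA10 was -0.01 without the same 2 libraries. The share of EXPA1 in WT was 24.44% with counts per kilobase of exon (25.38% with TPM), and the median r between members 0.12 without pnet2_abc (0.64 with it).

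Counts over all genes in the double mutants moved more: 266 in pnet2_ac (59 to 294 when 1 library was left out, 17 without the 2 libraries, 1101 with DESeq2), 150 in pnet2_bc (29 to 200, 67 and 680) and 60 between them (8 to 132, 11 and 517). With library size alone the pnet2_ac split was 198 higher and 95 lower (105 and 161 with TMM). At this depth the lowest member level, 1.12 CPM for EXPA8, rested on 79 counts.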
